A study of Homo sapiens with 18 samples.

Results

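The comparison described here set the AlkB-untreated m1A immunoprecipitation (IP) libraries of TRMT61A-knockdown cells against those of vector cells. They are 6 of 18 libraries, 3 of each line, taken by their labels, and all 725 listed adenosines in 180 tRNA genes were used. The cells were WPMY-1, an immortalised line of human prostate stromal myofibroblasts. The vector group (genotype label: TRMT61A wildtype) carried an empty vector, and the knockdown group an shRNA against TRMT61A. In every group, RNA shorter than 200 nucleotides was enriched, precipitated with an m1A antibody and eluted. One part of the eluate was treated with the demethylase AlkB, and the part described here was not. Input RNA of the same lines was sequenced beside both parts. The labels give neither the number of clones or shRNA sequences nor whether replicates were separate cultures, so p-values measure a spread between libraries that may be technical. Neither TRMT61A mRNA nor markers of the cell type are analysed here, since the table holds tRNA sites only. The knockdown and the cell type were therefore not checked.

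N1-methyladenosine (m1A) carries a methyl group on the edge of adenosine that pairs with uridine. In cytosolic tRNAs it sits mainly at position 58 in the T-loop, where the TRMT6/TRMT61A complex makes it and where it stabilises the fold of the tRNA. Reverse transcriptase tends to stop at m1A or to insert a wrong base, so cDNA that starts at the 3′ end of a tRNA often ends just before position 58. A site is therefore read here in 2 ways, by the number of reads that cover it and by the share of those reads with a mismatch.

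8 tRNA genes carry most of what follows, and they show which piece of a tRNA the reads covered. Capitals run from the first to the last listed adenosine with at least 0.5 times the mean reads of the best covered site of the gene. Sequences are those of the deposited table (build hg38), 5′ to 3′ as the gene is transcribed, with the intron where the gene has one.
Gly-GCC-1-1 (chr1:161443304-161443374, plus strand): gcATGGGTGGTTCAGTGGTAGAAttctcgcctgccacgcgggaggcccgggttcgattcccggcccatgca
Lys-TTT-3-1 (chr1:204506527-204506599, plus strand): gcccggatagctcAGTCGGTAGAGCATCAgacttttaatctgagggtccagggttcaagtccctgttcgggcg
Gln-CTG-1-4 (chr15:65869062-65869133, minus strand): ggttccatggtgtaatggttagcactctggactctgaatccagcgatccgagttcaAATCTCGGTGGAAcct
Leu-CAG-1-1 (chr1:161441533-161441615, plus strand): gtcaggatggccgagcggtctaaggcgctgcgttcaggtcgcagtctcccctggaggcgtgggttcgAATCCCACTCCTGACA
Leu-CAA-4-1 (chr1:248873855-248873960, plus strand): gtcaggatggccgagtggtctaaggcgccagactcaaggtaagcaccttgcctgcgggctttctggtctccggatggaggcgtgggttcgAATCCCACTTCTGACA
Val-AAC-1-1 (chr3:169772230-169772302, plus strand): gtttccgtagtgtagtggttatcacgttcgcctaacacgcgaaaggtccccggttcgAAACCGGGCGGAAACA
Tyr-GTA-2-1 (chr2:27050782-27050870, plus strand): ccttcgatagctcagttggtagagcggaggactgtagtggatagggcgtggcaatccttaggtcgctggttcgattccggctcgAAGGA
Thr-CGT-2-1 (chr16:14285893-14285964, plus strand): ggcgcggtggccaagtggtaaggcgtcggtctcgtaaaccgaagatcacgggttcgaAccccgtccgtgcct
Reads of the glycine and lysine genes covered the 5′ part, and those of the glutamine, leucine, valine and tyrosine genes the 3′ part. Lys-TTT-3-1 has no listed adenosine within 15 bases of the 3′ end, so reads of that end could not be counted. Its anticodon, Lys-TTT, had 4358 reads in knockdown replicate 1 and at most 174 in any other untreated IP library. The T-loop letters TTC, 1 further base and the A of position 58 stood in 165 of the 180 genes, as TTCGA in 107 and TTCAA in 57. In Leu-CAA-4-1, Gln-CTG-1-4, Leu-CAG-1-1 and Val-AAC-1-1 the capitals begin at position 58, that is at gene base 91, 57, 68 and 58. In Tyr-GTA-2-1 they begin beyond it, in the last bases of the acceptor stem. Thr-CGT-2-1 was listed only at gene bases 57 and 58, which are positions 58 and 59, and the capital marks position 59.

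Reads summed over the listed sites ranged from 209476 in knockdown replicate 2 to 890428 in knockdown replicate 1. To count a read once per gene, each gene was represented by the site with most reads over the 6 IP libraries, called its best site below. Best-site reads totalled 186937, 194265 and 161798 in the vector libraries and 216455, 54405 and 160492 in the knockdown libraries, against 58874 to 84361 in input. Site counts ended near 8000 reads, with 8011 the highest, and 14 genes reached at least 7500 at their best site in some library. No site of knockdown replicate 2 came that high. Replicates differed by far more than counting noise, as the chi-square of pairs over its degrees of freedom was 199 to 633. The median coefficient of variation of an anticodon's share was 57.8% in the vector IP and 39.3% in the knockdown IP, over the 25 anticodons read in all 6, against 6.75% and 7.38% in input.

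Which tRNAs an IP library recovered, judged at the best site of each gene, changed from replicate to replicate. With at least 20 best-site reads as the limit, 58 of 180 genes were recovered in all 6 libraries, 22 in none and 100 in some. At 100 reads 42 genes were recovered in all 6. No gene was recovered in all 3 libraries of one line and in none of the other. 26 genes had at least 1000 reads in one library and fewer than 20 in another. Of the 74 such gaps, counted per gene and library, 63 had at least 20 reads in all 3 inputs of the same line, and 57 had them in the AlkB-treated part of the same IP. At 100 reads in the treated part it was 36 of the 74. The count at 20 reads ran from 4 of 10 gaps in vector replicate 1 to 18 of 18 in vector replicate 3. Among all 180 genes, at least 100 had 20 reads in every treated part, and gap genes were selected for high reads in another library. Genes with a gap at their best site in an untreated part were thus often read there in its treated part, which is not shown to be particular to them. A gap does not show that a tRNA was absent, since its other end may be read. In vector replicate 2, Glu-TTC-14-1 had 11 reads at its 5′ end and 1462 at its 3′ end.

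By anticodon, 25 of 45 were recovered in all 6 IP libraries, 17 in some and 3 in none, whereas 40 reached 20 reads in all 6 inputs. Those recovered throughout were the tRNAs of alanine, glutamate, glutamine, phenylalanine, proline, tryptophan, tyrosine and valine, the initiator tRNA iMet-CAT, and some tRNAs of arginine, glycine, leucine, serine and threonine. Some came close to the limit of 20 reads. Glu-TTC had 41 and 23 reads in vector replicates 2 and 3. Trp-CCA had 32 in vector replicate 2 and 36 in knockdown replicate 3. The examples that follow were chosen after their values were seen. Lys-TTT, a tRNA that reads lysine codons, had 4, 3 and 1 reads in the vector libraries and 4358, 174 and 3 in the knockdown libraries. Asp-GTC, the aspartate tRNA, had 1832 reads in vector replicate 3, 88 in knockdown replicate 2 and at most 4 elsewhere. SeC-TCA, which inserts selenocysteine, had 977 reads in vector replicate 1 and at most 2 in each other IP library. Each of these 3 was high in 1 or 2 libraries, so the groups overlapped.

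**Figure D1:**
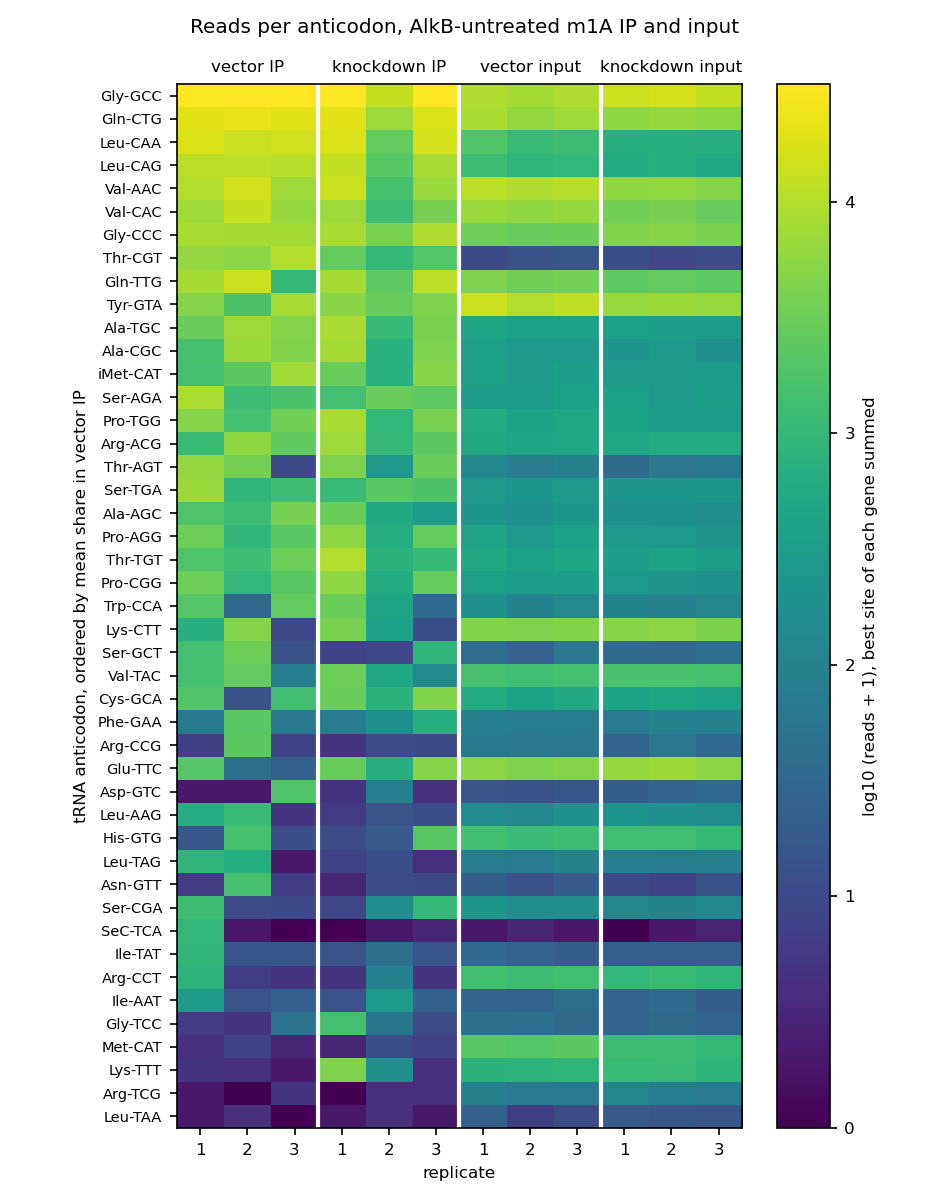
Heat map of best-site reads summed per anticodon (colour, log10 of reads + 1) in the 3 vector and 3 knockdown AlkB-untreated IP libraries and in the 6 inputs, with anticodons ordered by their mean share in the vector IP. The input columns look alike within a line, while anticodons in the lower part, such as Lys-TTT and Asp-GTC, are bright in 1 or 2 IP libraries only.

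Gly-GCC and Gln-CTG had the highest shares of reads in each of the 6 IP libraries, and the order below them varied. Gly-GCC, Gln-CTG, Leu-CAA, Leu-CAG and Val-AAC together held 44.9% to 52.1% of best-site reads. Gly-GCC, a glycine tRNA, made up 17.1%, 16.6% and 19.8% in vector and 14.9%, 23.4% and 20.1% in knockdown. Its reads came to 32038 to 32311 in the 5 libraries in which its leading genes stood at the limit of 8000, and to 12750 in knockdown replicate 2, so in those 5 libraries its share follows the total. Leu-CAG-1-1, a leucine tRNA read from the 3′ end, had 7154, 8001 and 6666 reads in vector and 8002, 1489 and 4077 in knockdown. These were 4.02% ± 0.169 of reads in vector and 2.99% ± 0.619 in knockdown (n = 3, SD), and the groups did not overlap. Vector replicate 2 and knockdown replicate 1 stood at the limit of 8000 reads for this gene. In these libraries 11 and 8 genes had at least 7500 best-site reads, so the totals were limited too. The true shares there are not known in either direction, and the gap between the groups rests partly on them. Val-AAC, a valine tRNA, made up 6.03% ± 2.07 in vector and 4.53% ± 1.76 in knockdown (n = 3, SD), and the groups overlapped.

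Leu-CAA, Leu-CAG, Ala-CGC, Ala-TGC, Thr-CGT and iMet-CAT were enriched over input in both lines. IP and input were compared within each line in the edgeR fit of all 12 libraries, over 44 anticodons. In vector, 6 anticodons (13.6%) were higher in the IP and 7 (15.9%) lower. In knockdown, 14 (31.8%) were higher and 4 (9.09%) lower. All 6 of the vector set were also called in knockdown, where they were 42.9% of that set. The lines share neither IP nor input libraries, but they share 1 estimate of the spread. Best sites were chosen in the IP libraries, which favours IP over input, although summing all listed sites kept these 6 calls in both lines.

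Thr-CGT, a threonine tRNA, stood furthest above input. It had 5915, 5273 and 10076 IP reads in vector and 2727, 1010 and 2048 in knockdown, against 9 to 14 in the vector inputs and 8 to 11 in the knockdown inputs. Its log2 fold of IP over input was 8.20 (SE 0.82, edgeR adjusted p = 5.29e-06) in vector and 6.94 (SE 0.78, adjusted p = 2.05e-05) in knockdown. In each line the lowest IP share lay above every input share. The only sites listed near its 3′ end are positions 58 and 59, so input reads that stop before position 59 are not counted for this tRNA.

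Leu-CAA, which has an intron in its genes, had a log2 fold of 2.40 (SE 0.43, edgeR adjusted p = 0.000742) in vector and 3.31 (SE 0.44, adjusted p = 7.67e-05) in knockdown. Leu-CAG followed with 2.30 and 2.82, at adjusted p-values of 0.000742 and 8.88e-05 by edgeR. Ala-CGC and Ala-TGC, alanine tRNAs, had log2 folds of 2.73 and 2.49 in vector and 3.34 and 2.89 in knockdown. Both lost the call in both lines when genes near the limit of 8000 reads were left out. iMet-CAT, which starts translation, had 2.71 (edgeR adjusted p = 0.0212) in vector and 2.68 (adjusted p = 0.0227) in knockdown. It lost the call in each line without replicate 3 of that line, and in both with the replicate number as a block. Its only gene reached 7519 reads, so it could not be tested without genes near the limit.

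The proline tRNAs Pro-TGG, Pro-CGG and Pro-AGG were called higher in the IP in the knockdown line, with log2 folds of 2.71, 2.73 and 2.62 (edgeR adjusted p = 0.00798, 0.0181 and 0.0181). The other knockdown calls were Thr-AGT, Thr-TGT, Ser-TGA, Ser-AGA and Arg-ACG on the higher side and Leu-AAG on the lower side. Except for Pro-TGG, each of these was lost under at least 1 alternative setting. Calls in one line and not in the other do not show a difference between lines, which was tested on its own below.

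3 anticodons fell below input in both lines. Met-CAT, the elongator methionine tRNA, had 3, 7 and 2 IP reads in vector and 2, 11 and 7 in knockdown, although inputs held 1059 to 2343. Its log2 folds were -10.38 (SE 1.21, edgeR adjusted p = 1.71e-05) and -7.60 (SE 1.09, adjusted p = 8.88e-05). Its 3 genes were each listed at 1 adenosine, gene base 43 or 44, in the middle of the tRNA. Leu-TAA (log2 -4.36 in vector and -3.46 in knockdown) and Arg-TCG (-6.28 and -5.61) were the others, each with 1 listed site. In knockdown, Leu-TAA, with only 6 to 24 reads in each input, lost its call without knockdown replicate 1 and without knockdown replicate 3, and Arg-TCG with the replicate number as a block. So the low recovery of these 3 is known at 1 adenosine per gene only.

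The place of the best site in the gene is given beside these calls, with no test. Of the 18 genes behind the 6 anticodons enriched in vector, 15 had their best site within 15 bases of the 3′ end, against 10 of the 27 genes behind the 7 depleted ones. The corresponding counts in knockdown were 32 of 42 and 5 of 9. Among genes of anticodons without a call it was 82 of 134 in vector and 70 of 128 in knockdown, so the depleted genes of the knockdown line lay near their background. The part of the site listing in the enrichment values was not tested.

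In vector and not in knockdown, Lys-TTT (log2 -9.49, SE 1.9, edgeR adjusted p = 0.0019), Tyr-GTA (-2.16, adjusted p = 0.0121), Glu-TTC (-4.09, adjusted p = 0.0206) and Val-AAC (-1.14, adjusted p = 0.0232) were called lower than input. Their knockdown log2 folds were negative as well, at -0.72, -1.24, -1.88 and -0.51. The Val-AAC call held in 5 of 10 alternative settings, with a log2 fold as small as -0.27 without knockdown replicate 2. It was lost there, without vector replicate 1 or 3, without genes near the limit and with the replicate number as a block. Glu-TTC lost its call without vector replicate 3 and without knockdown replicate 2. Its 5 genes were counted at best sites in the 5′ part. At the 3′ end, Glu-TTC-14-1 had 302, 1462 and 357 reads in the vector IP against 46, 32 and 38 in vector input. Tyr-GTA made up 2.88% ± 2.18 of vector IP reads (n = 3, SD) against 15.7% of input reads, and 3.45% ± 1.67 against 10.1% in knockdown. The knockdown value of Lys-TTT includes the 4358 reads of knockdown replicate 1. The test of the difference between lines called 0 of 44 anticodons (0.0%), with 4 (9.09%) at an unadjusted p under 0.05. Lys-TTT came nearest, with a difference of log2 8.77 (SE 2.15, edgeR adjusted p = 0.0521).

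**Figure D2:**
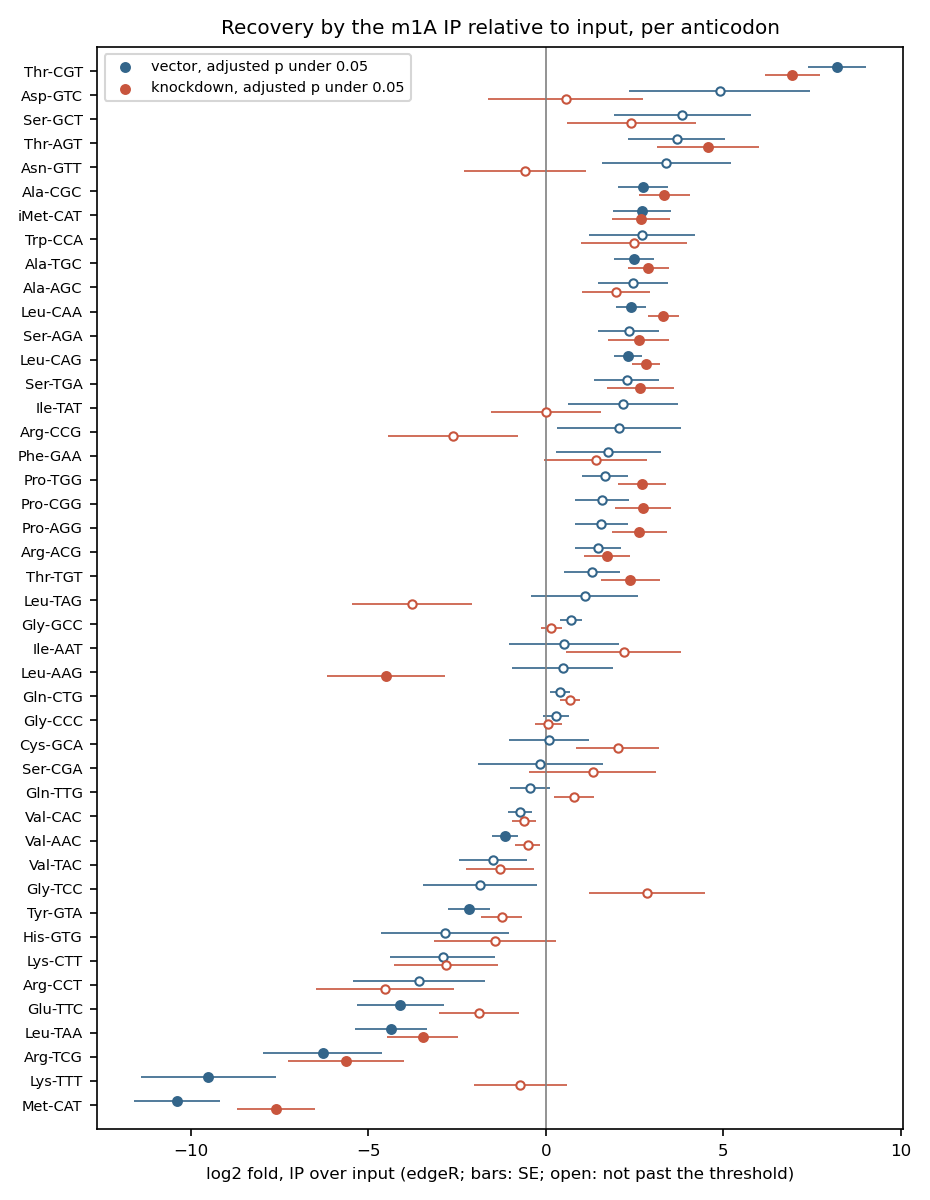
Log2 fold of IP over input for 44 anticodons in vector and knockdown cells, from edgeR, with bars for the SE and filled points for an adjusted p under 0.05. Thr-CGT lies furthest to the right in both lines (8.20 and 6.94) and Met-CAT furthest to the left in vector (-10.38).

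Directly between the lines, no tRNA gene passed the test. Of 109 genes with enough reads, 0 (0.0%) had an edgeR adjusted p under 0.05, 4 (3.67%) had an unadjusted p under 0.05, and DESeq2 called 2. The median SE of a gene's log2 change was 1.79. Thr-TGT-3-1, a threonine tRNA, came nearest, with 15, 13 and 13 reads in vector and 6709, 354 and 15 in knockdown (log2 6.94, SE 2.02, edgeR adjusted p = 0.0691). One knockdown library lay at the vector level and the others far above it. Val-CAC-3-1, a valine tRNA, had 382, 2655 and 2508 reads in vector and 75, 82 and 292 in knockdown (log2 -3.52, SE 1.39, edgeR adjusted p = 0.427).

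The 2 Thr-CGT genes were lower in all knockdown libraries as a share of reads, without passing. Thr-CGT-2-1 had 3006, 2622 and 5195 reads in vector and 1277, 457 and 957 in knockdown (log2 -2.06, SE 0.80, edgeR adjusted p = 0.427). Thr-CGT-4-1 had a log2 change of -1.78 (adjusted p = 0.673). Together they made up 4.04% ± 1.91 of reads in vector and 1.46% ± 0.34 in knockdown (n = 3, SD), while their input shares were 0.0156% ± 0.0043 and 0.0149% ± 0.00325. The groups did not overlap in the IP. In bulk libraries such as these, fewer molecules of a tRNA and a smaller recovered fraction of it cannot be told apart from the IP alone. The edgeR test on the anticodon gave a log2 change of -1.39 (SE 0.71, adjusted p = 0.903).

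Over all 36 anticodons tested, 0 (0.0%) passed and 0 had an unadjusted p under 0.05 in edgeR, with a median SE of 1.15. Shares did not overlap for 2 anticodons higher in knockdown (5.56%), Glu-TTC and Cys-GCA, and for 3 lower (8.33%), Thr-CGT, Val-CAC and Leu-CAG. Cys-GCA, a cysteine tRNA, made up 1.02%, 0.00618% and 0.816% in vector and 1.47%, 1.48% and 2.81% in knockdown. Glu-TTC, a glutamate tRNA, made up 1.11%, 0.0211% and 0.0142% in vector and 1.31%, 1.3% and 2.99% in knockdown. In both, 1 vector library lay close to the knockdown range. All 5 Glu-TTC genes were counted at best sites in the 5′ part, and reads at the 3′ end ran the other way. There Glu-TTC-14-1 had 302, 1462 and 357 reads in vector and 7, 48 and 5 in knockdown. Glu-TTC-4-1 had 281, 1488 and 342 against 4, 80 and 7, and Glu-TTC-3-1 at most 8 in any untreated IP library. The first 2 changed by log2 -4.09 and -3.39 there (edgeR adjusted p = 0.983 for each). Glu-TTC was also higher in knockdown input, at 9.25% against 6.28%, while Cys-GCA had 0.627% against 0.667%. Leu-CAG was also lower in knockdown input, at 0.903% against 1.36%. Val-CAC made up 3.98%, 6.72% and 3.91% in vector and 3.22%, 2.35% and 2.44% in knockdown, and it was also lower in knockdown input, at 5.21% against 8.19%. Among genes, 8 did not overlap and were higher in knockdown (7.34%), of which 6 were Cys-GCA genes that share reads, and 4 were lower (3.67%). These counts hold for best sites only. At its 3′ end Cys-GCA-2-2 had 268, 1 and 1 reads in vector and 483, 91 and 360 in knockdown. At its 5′ end it had 1, 1 and 632 against 2, 0 and 219, while Cys-GCA-8-1 had 0, 0 and 1 against 0, 0 and 177 there. Of 22 amino acids, 2 did not overlap and were higher (9.09%), cysteine and glutamate, and none was lower (0.0%), with an adjusted p of 1 for each in exact permutation tests.

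By the same edgeR test, the largest log2 changes without a call were those of Leu-TAG (-4.96), Leu-AAG (-4.81), Gly-TCC (4.60), Ile-TAT (-2.41) and Glu-TTC (2.36, from 5′ best sites). The first 4 each rested on high counts in 1 or 2 libraries. Leu-AAG had 613, 1182 and 4 reads in vector and 5, 13 and 11 in knockdown, and Gly-TCC had 5, 4 and 49 in vector and 1516, 55 and 10 in knockdown. Gly-GCC and Gln-TTG, among the most abundant in the IP, changed by 0.20 and 0.39 and reversed under some settings.

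Both ends of tRNAs were recovered, in proportions that varied between replicates of either line. Over 51 tRNAs listed at both ends, reads at the best 5′ site (up to gene base 25) were 57.1%, 41.6% and 58.03% of the reads at both ends in vector and 34%, 71.0% and 53.7% in knockdown. The means were 52.3% ± 9.21 and 52.9% ± 18.5 (n = 3, SD; exact permutation p = 1). Without glycine tRNAs they were 26.1% ± 12.8 and 29.1% ± 21.7 (n = 3, SD; exact permutation p = 1). Inputs were far tighter and did differ between lines, at 44.3% ± 0.952 in vector and 64.9% ± 0.767 in knockdown (n = 3, SD; exact permutation p = 0.1, the smallest that 3 against 3 allows).

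Coverage was then followed along the tRNA, as the median over genes of reads in a zone relative to the best site. At 9 to 14 bases before the 3′ end it was 89.2% ± 11.8 in vector and 86.2% ± 12.3 in knockdown (38 genes; n = 3, SD; exact permutation p = 0.8). At position 58, which is 15 bases before the end, it was 57.97% ± 19.9 and 61.9% ± 13.3 (54 genes; n = 3, SD; exact permutation p = 0.9), against 13.6% and 18.5% in the inputs. Up to base 22 it was 20.5% ± 11.5 and 33.9% ± 18.7 (29 genes; n = 3, SD; exact permutation p = 0.4), against 68.9% and 68.0% in the inputs. Between bases 30 and 40 it was 0 in each vector library and 0.622% ± 0.497 in knockdown (4 genes; n = 3, SD; exact permutation p = 0.1), against 13.98% and 8.37% in the inputs. IP reads thus covered the ends of these tRNAs and, in the 4 genes listed there, seldom the anticodon loop.

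**Figure D3:**
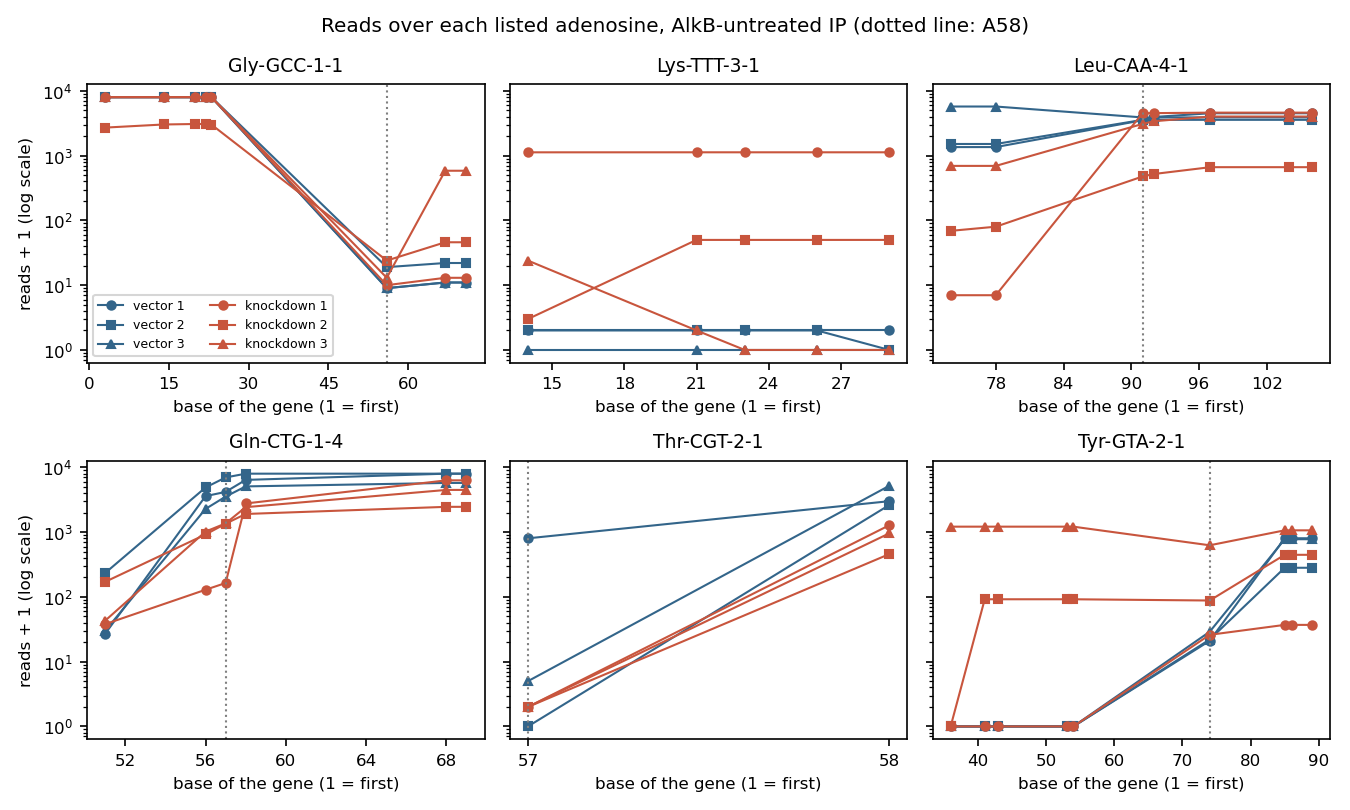
Reads + 1 (log axis) at each listed adenosine of 6 tRNA genes against the base of the gene, for the 3 vector (blue) and 3 knockdown (red) AlkB-untreated IP libraries, with position 58 as a dotted line. Gly-GCC-1-1 is read at its 5′ end, near 8000 reads in 5 of 6 libraries, Leu-CAA-4-1 and Gln-CTG-1-4 at their 3′ ends, and Thr-CGT-2-1 falls to a few reads at position 58 in 5 of 6 libraries.

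Thr-CGT reads stopped between positions 59 and 58 in nearly all untreated libraries of both lines. Over both genes, 2 of 5273 reads in vector replicate 2 and 4 of 10076 in vector replicate 3 continued to position 58, that is 0.0379% and 0.0397%. In vector replicate 1 the figure was 1643 of 5915, or 27.8%. In knockdown it was 3 of 2727, 3 of 1010 and 3 of 2048, or 0.11%, 0.297% and 0.146%. The means of 9.28% ± 16.01 and 0.185% ± 0.0991 (n = 3, SD) did not differ in an exact permutation test (p = 1), and the vector mean rests on replicate 1.

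After AlkB treatment of the other part of the same IPs, reads of Thr-CGT ran on. The ratio of reads at position 58 to those at 59 was 98.2%, 57.4% and 97.4% in vector and 101%, 62.7% and 97.2% in knockdown, from 71 to 715 reads. In input it was 17.7% ± 4.07 and 20.5% ± 16.9 (n = 3, SD), from no more than 14 reads per library. All treated libraries lay above all untreated ones of either line, vector replicate 1 included. The stop before position 58 was thus seen without AlkB in both lines, and much less with it.

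Most other tRNAs in the untreated IP passed this step. Of 35 tRNAs with at least 20 reads at position 59 in all 6 libraries, only the 2 Thr-CGT genes had a ratio under 10% in 5 or more libraries, and 19 had a ratio over 90% in 3 or more. Leu-CAG-1-1 and iMet-CAT-1-1 exceeded 90% in all 6. Limma called 0 of the 35 between the lines, with the lowest adjusted p at 0.996.

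Read-through was also measured as reads at position 58 over those in the last 9 bases, from 0 to 8 bases before the end. Summed over 66 tRNAs it was 54.6%, 84.0% and 81.6% in vector and 61.4%, 57.6% and 69.0% in knockdown (exact permutation p = 0.4), and the groups overlapped. In input the sum was 10.6% ± 0.155 in vector and 17.3% ± 0.930 in knockdown (n = 3, SD). In the AlkB-treated IP it was 47.0%, 71.6% and 71.5% in vector and 62.8%, 67.0% and 46.1% in knockdown, overlapping the untreated IP. The rise with AlkB seen for Thr-CGT was thus not seen in the sum. Per tRNA, limma called 0 of 44 (0.0%), with 5 (11.4%) at an unadjusted p under 0.05. 18 were higher and 26 lower, with a median log2 change of -0.05. Values did not overlap for 4 tRNAs higher in knockdown (9.09%) and for 1 lower (2.27%), and all 5 were tyrosine tRNAs.

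The 4 higher ones, Tyr-GTA-2-1, 5-4, 5-5 and 7-1, are similar copies that share reads. Summed over them, 2.49%, 6.97% and 3.30% of reads passed position 58 in vector and 67.4%, 16.5% and 54.0% in knockdown. The means were 4.25% ± 2.39 and 45.9% ± 26.4 (n = 3, SD), a description with no test, since these genes were picked because their values did not overlap. The value of 67.4% in knockdown replicate 1 came from 97 of 144 reads. In input the same genes had 1.99% ± 0.328 in vector and 4.10% ± 0.561 in knockdown (n = 3, SD), and in the AlkB-treated IP 55.7% ± 19.2 and 66.1% ± 8.81 (n = 3, SD). The mean of the untreated vector IP thus lay near its input, and that of the untreated knockdown IP between its input and the treated IPs, although knockdown replicate 1 lay above its own treated part.

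Among single genes, Tyr-GTA-5-4 changed by log2 3.13 (SE 0.59), Tyr-GTA-2-1 by 3.38 (SE 0.67) and Tyr-GTA-7-1 by 3.77 (SE 0.79), each at a limma adjusted p of 0.0683, and Tyr-GTA-5-5 by 3.15 (adjusted p = 0.123). These did not pass the threshold of 0.05. Another tyrosine gene ran the other way. Tyr-GTA-8-1 read through in 47.0%, 65.5% and 99.7% of vector and 0.476%, 17.4% and 7.11% of knockdown reads (log2 -4.08, SE 1.39, limma adjusted p = 0.276), with 29 reads at the 3′ end in vector replicate 2. With all 5 summed, Tyr-GTA had 22.4% ± 20.6 and 24.3% ± 24.5 (n = 3, SD; exact permutation p = 0.8). The 5 genes thus gave no common direction for tyrosine tRNAs.

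**Figure D4:**
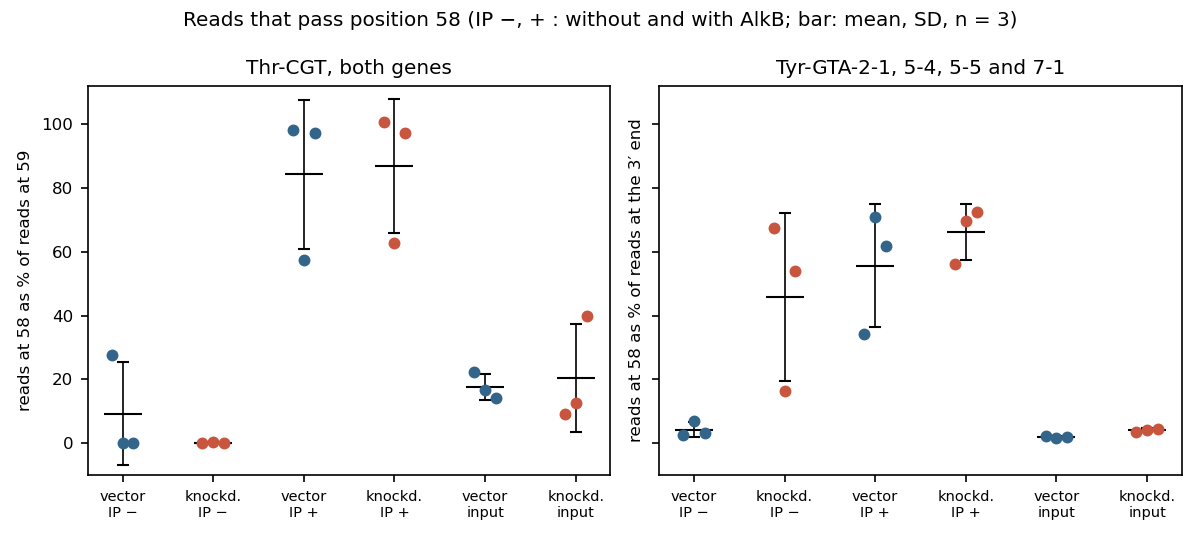
Share of reads that pass position 58 (%) in Thr-CGT (left, relative to position 59) and in 4 Tyr-GTA genes (right, relative to the 3′ end), one point per library, with the mean and SD (n = 3), for the untreated IP, the AlkB-treated IP and input of each line. Thr-CGT is near 0 in 5 of 6 untreated and at 57.4% to 101% in treated libraries. The Tyr-GTA genes are at 2.49% to 6.97% in the untreated vector and 16.5% to 67.4% in the untreated knockdown IP.

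The glutamine tRNAs gave no common direction. Gln-CTG, over 4 genes, had 42.7%, 82.2% and 71.3% read-through in vector and 2.56%, 49.5% and 36.7% in knockdown (exact permutation p = 0.2), and the groups overlapped. Gln-CTG-1-4 changed by log2 -2.01 and Gln-CTG-5-1 by -2.06 (limma adjusted p = 0.858 for each). The 3 Gln-TTG genes changed by 0.49, 0.53 and 0.30 (limma adjusted p = 0.992 for each), and summed over them read-through was 51.6% ± 23.2 in vector and 68.6% ± 15.9 in knockdown (n = 3, SD; exact permutation p = 0.4). Ala-CGC, Ala-TGC, Phe-GAA and iMet-CAT read through almost completely in both lines, at 97.6% to 116% in each library. The proline tRNAs had about 40% in both, as Pro-TGG with 41.9% ± 28.5 and 40.2% ± 20.5 (n = 3, SD; exact permutation p = 0.9). Values over 100% mark more reads at position 58 than at the sites nearer the end.

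At the sites deep enough to test, mismatch in the untreated IP was low and no site was called between the lines. Of 255 sites with at least 20 reads in all 6 libraries, 0 (0.0%) passed the quasi-binomial test and 21 (8.24%) had an unadjusted p under 0.05. Mean mismatch reached 1% at 24 sites in vector and 14 in knockdown, and 5% at none in either line. Sites were classed by the nucleotide number in the gene and, for position 58 and the acceptor stem, by the distance from the 3′ end. Of the 8 classes 5 had tested sites.

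Position 58, the target of TRMT61A, had 91 listed and 45 tested sites. Its median mismatch was 0.617%, 0.553% and 0.599% in vector and 0.580%, 0.351% and 0.612% in knockdown. The means were 0.590% ± 0.0329 and 0.514% ± 0.143 (n = 3, SD; exact permutation p = 0.6), with knockdown replicate 2 alone below the vector range. With reads pooled, it was 0.635% ± 0.0201 and 0.572% ± 0.0765 (n = 3, SD; exact permutation p = 0.1, adjusted p = 0.25 over the 5 classes). Input pooled over the same sites had 0.552% ± 0.116 in vector and 0.615% ± 0.142 in knockdown (n = 3, SD), overlapping the IP values in each line. Among the deepest sites, Leu-CAG-1-1 A68 had 0.722% ± 0.0479 in vector and 0.630% ± 0.0786 in knockdown (n = 3, SD; quasi-binomial adjusted p = 0.609). The corresponding values of iMet-CAT-1-1 A57 were 0.449% ± 0.11 and 0.394% ± 0.0834 (n = 3, SD; quasi-binomial adjusted p = 0.871). Gln-CTG-5-1 A57 had 0.609% ± 0.104 and 0.312% ± 0.286 (n = 3, SD; quasi-binomial adjusted p = 0.748), where knockdown replicate 1 had 0 mismatches in 175 reads.

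Beside the Thr-CGT stop, mismatch was above 1% in each vector library for both genes, but in each knockdown library for Thr-CGT-2-1 only. At position 59 of Thr-CGT-2-1, gene base 58, it was 1.1%, 1.3% and 1.1% in vector and 1.41%, 1.31% and 2.19% in knockdown (quasi-binomial adjusted p = 0.568). At the same base of Thr-CGT-4-1 it was 1.07%, 1.4% and 1.5% in vector and 1.79%, 0.362% and 0.733% in knockdown (quasi-binomial adjusted p = 0.981). The second gene thus did not repeat the direction of the first. Position 58 itself had too few reads in these genes to be tested.

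The D-loop holds the tRNA's dihydrouridines, and position 14 is a conserved adenosine at its start that pairs with uridine 8. Position 14 (61 sites, 12 tested) had a median mismatch of 0.224% ± 0.0614 in vector and 0.288% ± 0.00813 in knockdown (n = 3, SD; exact permutation p = 0.1, adjusted p = 0.25). Adenosines at D-loop positions 20 to 22 (93 sites, 18 tested) had 0.0854% ± 0.00361 and 0.0943% ± 0.00108 (n = 3, SD; exact permutation p = 0.1, adjusted p = 0.25). All 18 tested D-loop sites lay in Gly-GCC and Gly-CCC genes, and the 12 tested sites of position 14 in glycine and serine genes. The values thus stand for these tRNAs, not for all listed sites of a class. In both classes all knockdown medians lay above all vector medians, by 0.0637 and 0.00893 percentage points on average. Leaving out 1 library brought these differences down to 0.0293 (without vector replicate 1) and 0.000864 (without knockdown replicate 1). With reads pooled, the D-loop groups overlapped, at 0.0969%, 0.0899% and 0.0823% in vector and 0.0947%, 0.0988% and 0.107% in knockdown (exact permutation p = 0.2). Gly-GCC-5-1 A14, one of the deepest, had 0.346% ± 0.0589 and 0.415% ± 0.0379 (n = 3, SD), and its A20 had 0.0708% ± 0.0144 and 0.103% ± 0.00845 (n = 3, SD). Neither passed the quasi-binomial test (adjusted p = 0.748 and 0.558).

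In the 3′ strand of the acceptor stem (172 sites, 100 tested) the median was 0.108% ± 0.0432 in vector and 0.0950% ± 0.0830 in knockdown (n = 3, SD; exact permutation p = 0.8). Adenosines outside all named classes (283 sites, 80 tested) had 0.488% ± 0.0560 and 0.521% ± 0.0553 (n = 3, SD; exact permutation p = 0.5). Among these, Gly-GCC-1-1 A3 had 0.658% ± 0.0577 and 0.564% ± 0.129 (n = 3, SD; quasi-binomial adjusted p = 0.871) at up to 8000 reads per library. For both classes the groups overlapped.

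**Figure D5:**
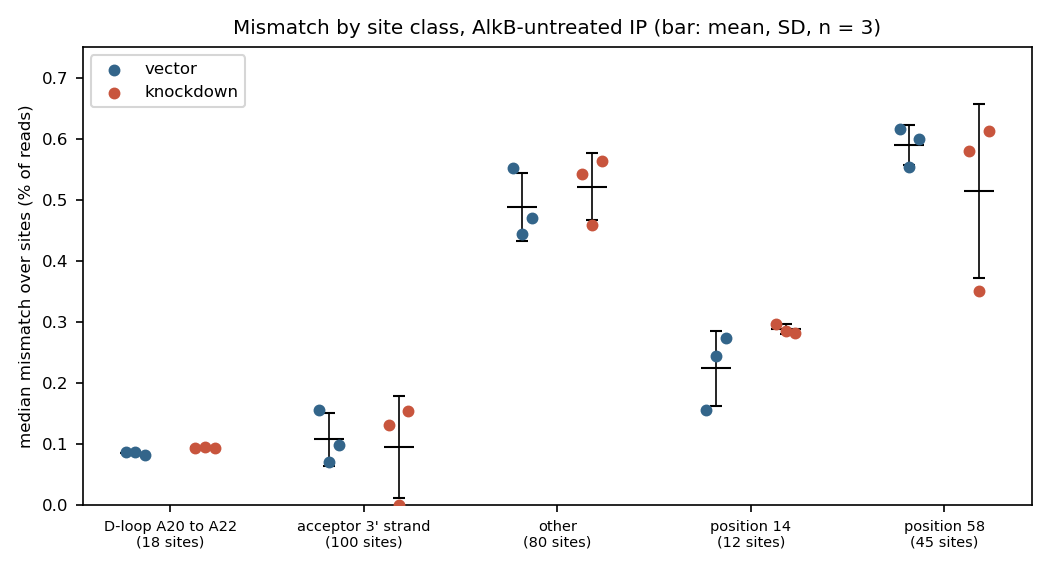
Median mismatch over the tested sites of each class (% of reads) in the 3 vector and 3 knockdown AlkB-untreated IP libraries, with the mean and SD (n = 3). Position 58 and the sites outside named classes lie highest, at about 0.5%, and knockdown lies above vector without overlap at position 14 and in the D-loop, at the smallest exact permutation p of 0.1. In the D-loop all tested sites lie in glycine tRNAs, and at position 14 in glycine and serine tRNAs.

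The remaining 3 classes had no site with 20 reads in all 6 libraries. At position 9 (16 sites), pooled mismatch was 43 of 21157 reads (0.203%) in vector and 5 of 4446 (0.112%) in knockdown. At A37, next to the anticodon (5 sites), it was 10 of 1446 reads in vector, of which 1445 came from replicate 1, and 4 of 556 in knockdown. At the wobble position 34 (4 sites), where enzymes convert adenosine to inosine, which is read as guanosine, 8 of 8 vector reads mismatched (Wilson 95% interval 67.6% to 100%) and 15 of 17 knockdown reads (88.2%, 65.7% to 96.7%). In input it was 11 of 277 vector reads (3.97%) and 2 of 173 knockdown reads (1.16%). These intervals cover counting error only, and which base was read is not analysed here. The few IP reads at the 4 listed A34 sites were thus mostly mismatched in both lines, unlike those in input. These sites lie in Arg-ACG and Leu-AAG, most of the reads came from Arg-ACG-2-1, and vector replicate 3 had none.

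A further set of untested sites had high mismatch, A21 of Val-AAC and Val-CAC (8 sites of genes that share reads), chosen after its values were seen and given with no test. They belong to the D-loop class but lacked 20 reads in knockdown replicate 1, so the class values above leave them out. Knockdown replicate 1 had 7 reads there in all, of which 2 mismatched (28.6%). The other knockdown libraries had 35.8% of 1985 and 36.4% of 1735 reads, and the vector libraries 25.3% of 7020, 23.8% of 3225 and 18.5% of 2627. The groups did not overlap, although the Wilson interval of knockdown replicate 1 (8.22% to 64.1%) spans every other value. In input the order was the reverse on average, at 41.1% ± 0.98 in vector and 34.9% ± 6.78 in knockdown (n = 3, SD), with the groups overlapping.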

How the data were processed

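The authors deposited, per the file headers, counts of reads covering each listed adenosine and counts of those mismatched, not normalised. The submitters' processing notes name SAMtools 1.3.1, cutadapt 1.9.3, Bowtie2 2.2.4 and the build hg38, without roles. How sites were listed is not given in the sources used here, and 19 more table lines were left out. Samples were grouped by their labels. Recovery was tested with edgeR 4.0.16 (TMM, quasi-likelihood, R 4.3.3) on best-site counts per gene and anticodon, with DESeq2 1.42.0 as an alternative; mismatch with a quasi-binomial model at sites covered by 20 or more reads in all 6 libraries; and read-through with limma 3.58.1 on log2 ratios (offset 0.5). P-values were adjusted by Benjamini-Hochberg over all features (threshold 0.05, two-sided). Scripts were tested on simulated data. Members, lists and tests were chosen with earlier results of these data known. The comparison of IP with input within a line, the ends of tRNAs and the step from position 59 to 58 were added after the data were examined. Named genes were the 10 with the highest vector share, those past the threshold or, failing that, the 5 per direction with the smallest p; for mismatch, also the 4 deepest sites of each class. Others are named as chosen after their values were seen, as are the Thr-CGT and Tyr-GTA sums. Of 180 genes, 172 matched a RefSeq tRNA gene (GRCh38.p14) by coordinates. Copies of a tRNA gene share reads, so single-gene values are uncertain. Same-numbered libraries of the 2 lines did not deviate together, with correlations of -0.213 to -0.124 for recovery.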

Additional observations from a re-analysis of the deposited data

How the results depend on the processing

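Calls between the lines ranged from 0 to 5 under the settings run, except for mismatch with the replicate block. For recovery per gene, 0 calls became 1 with DESeq2's size factors in edgeR, 2 in DESeq2, 1 without the filter on low counts, 1 without genes near the limit of 8000 reads, and 0 to 1 when 1 library was left out. For the difference in recovery over input, 0 became 2 with DESeq2's size factors, 2 with all listed sites summed, and 0 to 5 with 1 library left out, 5 without vector replicate 3. Anticodons called for IP over input numbered 11 to 25 with 1 library left out in vector (13 with all, 25 without vector replicate 2, 23 without knockdown replicate 2) and 14 to 22 in knockdown (18 with all). Replicate numbers did not pair the libraries; with the number as a block, that count was 10 in knockdown, and mismatch had 22 calls in place of 0. Mismatch calls were 0 to 1 with 1 library left out (1 without knockdown replicate 2), read-through calls 3 without tRNAs near the limit and 0 to 4 with 1 library left out (4 without knockdown replicate 2), and calls for reads 16 to 35 bases before the end 0 to 1. Signs of log2 changes per gene or anticodon turned for Leu-AAG-3-1 (0.49 with all sites summed), Gly-GCC (-0.0930 without the filter), Gln-TTG (-0.00667 without genes near the limit) and, over the libraries left out in turn, Thr-TGT-2-1 (-0.70 to 3.05), Gly-GCC (-0.0454 to 0.355), Gln-TTG (-0.0859 to 1.04) and Ile-TAT (-4.43 to 1.82). With 1 library left out, the difference in mismatch (percentage points) ran from -0.503 to 0.0976 at Phe-GAA-1-3 A58, from -0.124 to 0.00669 for the class of position 58 and from -0.0403 to 0.0346 for the acceptor stem, which was 0.0150 with reads pooled. Differences in coverage (percentage points) ran from -9.67 to 2.68 at 9 to 14 bases before the end, from -6.94 to 12.5 at position 58, from -8.89 to 16.9 up to base 22 and from -8.41 to 10.1 for the share at the 5′ end; a minimum of 50 reads gave 2.68 for the first. The cause of these shifts was not tested. Depth limits all comparisons of tRNAs with fewer than 20 reads in a library, and the limit near 8000 reads those of the most abundant. Through the totals, that limit also touches the shares of other tRNAs in libraries with genes near it.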
